A study of Mus musculus with 4 samples.

Results

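Macrophages and monocytes of mouse subcutaneous adipose tissue (SAT) were described in 95 cells, which are 2.01% (1.63 to 2.45) of the 4738 SAT cells that had at least 200 genes. These cells were chosen by their own counts of unique molecular identifiers (UMIs), each of which marks 1 captured RNA molecule. A cell entered with at least 3 UMIs of Lyz2, or at least 3 of C1qa, C1qb and C1qc together (the C1q sum), and with at least 1 UMI of Tyrobp or Fcer1g. Cells with 10 or more UMIs of S100a8 and S100a9, which mark neutrophils, were left out, as were cells with any UMI of Cd79a (B cells), Cd3e (T cells), Dcn (fibroblasts) or Cdh5 (endothelial cells). The values of these 12 genes are therefore descriptions of how the cells were chosen. Intervals are exact 95% intervals, Poisson for sums of UMIs and binomial for shares and for ratios of sums, and those of differences between shares combine the exact limits of both shares. They cover counting error only, as do the limits given for a count of 0, which are 3 counts of the total.

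The libraries came from FVB mice, whose genotype the labels spell VFB, fed chow and carrying subcutaneous grafts of MycCap, a prostate cancer cell line derived from HiMyc mice. One group was injected with D-CAN, a peptide of D-amino acids in which a sequence that homes to adipose stromal cells (ASC) is joined to an amphipathic sequence, and the control group with PBS. SAT, the stromal and vascular fraction of inguinal fat, and the tumor graft each gave 1 library per treatment, so that no comparison has a replicate and none was tested. Ages and the number of mice behind a library were not given in the sources used here. Dead cells and red cells were removed before 10x 3′ capture. The header of the SAT D-CAN table names Cell Ranger 3.0.2 and the other headers name 3.1.0, so that within SAT software version and treatment cannot be told apart.

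The SAT control library held 6667064 UMIs over 2851 barcodes, 2841 of them with 200 genes or more, and the SAT D-CAN library 7444729 UMIs over 1922 barcodes, 1897 of them kept. The 60 control members had a median of 1367.5 UMIs per cell (lowest 527, highest 18561) and 171957 in all. The 35 D-CAN members had a median of 4573 UMIs (559 to 27193) and 232639 in all. D-CAN members were thus the deeper ones, with medians of 1685 against 720.5 genes per cell. The median share of mitochondrial UMIs was 5.17% in control and 4.62% in D-CAN members. The SAT libraries shared 2 barcodes, and no member had a barcode found in another library.

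Macrophages of fat are a mixture of long-lived resident cells and cells that arrive from blood as monocytes. Resident macrophages typically carry complement C1q, mannose receptor and scavenger receptors and take up debris and lipid, whereas classical monocytes carry Ly6c2, Ccr2 and Plac8 and lose them as they mature. Lyz2, which encodes the lysozyme of myeloid cells (chr10:117277331-117282321, minus strand, GRCm38), is made by both. C1qa, C1qb and C1qc encode the 3 chains of C1q and lie side by side on the minus strand between chr4:136880129 and chr4:136898803.

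The label was set against markers that were not used to choose the cells. All 18 listed core macrophage genes had UMIs in control members and 17 in D-CAN members, and 7 of them had too few to count as measured. Of the other 11, 9 were at least 2-fold higher in members than in all other SAT cells of the same library, in both libraries, a description that the minimum, set on members, favours. Across all 491 genes measured, 23% were that much higher in members and 0.815% that much lower. A gene counted as measured with at least 100 UMIs over both member groups, and folds were taken on CPM, the UMIs of a gene per 1000000 UMIs of the summed cells, with 0.5 UMI added. Csf1r, the receptor for the macrophage growth factor CSF1, had 89 UMIs in control and 71 in D-CAN members, log2 ratios of 6.57 and 5.39 over the other cells. Aif1, an actin-binding protein of macrophages, stood at 4.66 and 4.49, and Mpeg1, a pore-forming protein of phagocytes, at 4.86 and 3.96. The other genes furthest above the remaining SAT cells were Lyz1, Retnla, Ccl9, Ms4a7, Cfp, Pf4, Clec10a, Lst1, Sirpa, Mrc1, Alox5ap and Cd68. Adgre1, which encodes F4/80, was sparse, with 33 and 14 UMIs.

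Defining markers of most other cell types were at or near 0 in members. The neutrophil list of 9 genes summed to 7 UMIs in control and 16 in D-CAN members, with Csf3r the most counted (6 and 7) and Ly6g and Retnlg at 0. The endothelial list summed to 7 and 6 UMIs, the mural list to 2 and 5, the adipocyte list to 2 and 9 with Adipoq at 0, and the platelet list to 0 in both. The NK cell list summed to 5 and 0, the red cell list to 3 and 7 and the mast cell list to 0 and 8, with Kit at 7 in D-CAN. The cancer cell list summed to 11 and 17, all in the Lyz2 arm described below, with Epcam the most counted (10 and 14). Fibroblast genes summed to 31 and 43 UMIs, of which Gsn gave 25 and 42. B cell genes summed to 94 and 74 UMIs (Ighm 47 and 63, Igkc 25 and 2), and T cell genes to 61 and 42 (Trbc1 23 and 2). Xist was at 0 in both libraries, and the Y-linked gene Ddx3y had 7 and 23 UMIs.

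A subset of D-CAN members went against the label. Xcr1 and Clec9a, defining markers of type 1 conventional dendritic cells, had UMIs in 6 of 35 D-CAN members and in 0 of 60 control members, which allows a share of cells with a UMI of up to 5% there and, at the lower depth of control members, does not limit the share that express them. These 6 cells had 2 to 10 UMIs of Xcr1 and 1 to 3 of Clec9a, but only 4 to 18 of Lyz2 and at most 1 of the C1q sum. They were among the deepest, with 13114 to 27193 UMIs (median 15857), and held 109940 UMIs, 47.3% of all UMIs of D-CAN members. Naaa, a lysosomal amidase abundant in such dendritic cells, had 326 of its 335 D-CAN UMIs in them. When every cell was thinned to 1000 UMIs, 0 of the 6 still met the rule. In the SAT control library 10 cells had a UMI of Xcr1 or Clec9a, all with under 3 UMIs of Lyz2 and none of them members. In the SAT D-CAN library 17 cells had one, and 11 were not members, 10 of them with under 3 UMIs of Lyz2. Those 11 had a median of 12064 UMIs, against 2100.5 in the 10 control cells. Members with a UMI of any of 6 dendritic markers (Flt3, Zbtb46, Xcr1, Clec9a, Siglech, Ccr7) numbered 6 in control and 9 in D-CAN, and results are given below with and without these 15 cells. Of these cells, 2 in control and 1 in D-CAN had a C1q sum of at least 3. The D-CAN one, with 18692 UMIs, had the most Lyz2 (1201 UMIs) and the highest C1q sum (211) of that library. Values without the dendritic-marker members therefore leave out this cell too.

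The share of SAT cells that were members differed by less than counting error between the libraries. Members were 2.11% (1.62 to 2.71) of control cells, 60 of 2841, and 1.85% (1.29 to 2.56) of D-CAN cells, 35 of 1897. The difference was −0.267 percentage points, with an interval from −1.08 to 0.601. The condition on Lyz2 or C1q left 91 control and 56 D-CAN cells, and that on S100a8 and S100a9 took out 9 of each. Of the cells that met every other condition, 4 control and 2 D-CAN cells stood just outside at 2 UMIs, for the larger of Lyz2 and the C1q sum, and 4 and 0 just inside at 3. Most members were far from the threshold, with 45 control and 26 D-CAN cells at 10 UMIs or more.

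Lyz2 ranged from 1 to 1394 UMIs in control members, with a median of 13, and from 0 to 1201 in D-CAN members, with a median of 24. The C1q sum was 0 in 29 of 60 control and 23 of 35 D-CAN members and reached 209 and 211. Members were therefore described as a C1q arm, with a C1q sum of at least 3, and a Lyz2 arm, which entered by Lyz2 alone. The C1q arm held 26 of 60 control members (43.3%, 30.6 to 56.8) and 10 of 35 D-CAN members (28.6%, 14.6 to 46.3), a difference of −14.8 percentage points with an interval from −34.1 to 7.08 that includes 0. All 6 cells with Xcr1 or Clec9a were in the Lyz2 arm.

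**Figure D1:**
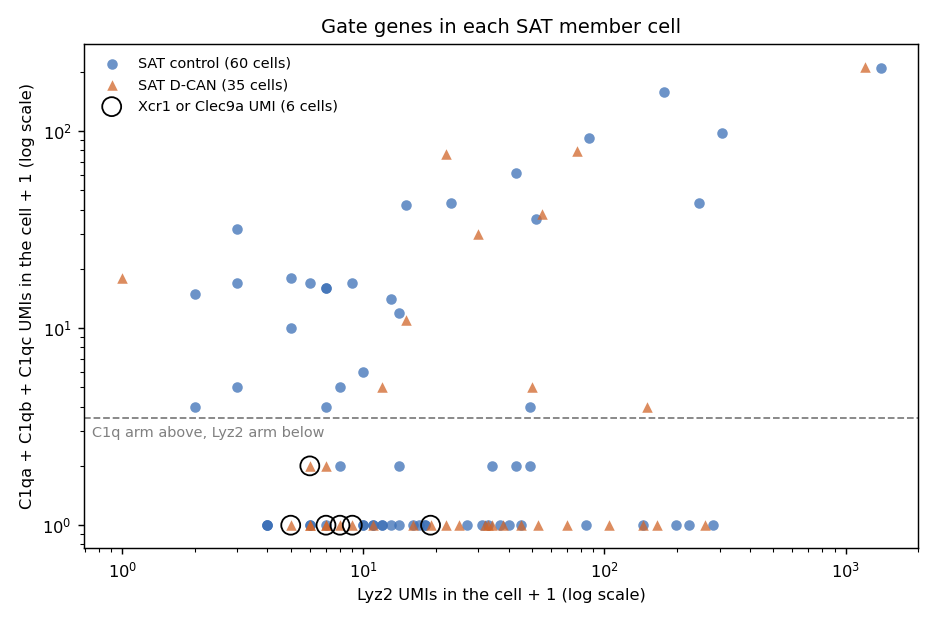
Each point is 1 of the 95 members, with Lyz2 UMIs on the horizontal axis and the C1q sum on the vertical axis (both plus 1, log scales), for SAT control (circles, 60 cells) and SAT D-CAN (triangles, 35 cells). The dashed line separates the C1q arm from the Lyz2 arm, and the 6 D-CAN cells ringed in black, which had a UMI of Xcr1 or Clec9a, lie low on both axes.

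Genes of resident and alternatively activated macrophages were concentrated in the C1q arm in both libraries. Of the 491 genes, 7.94% were at least 2-fold higher in the C1q arm than in the Lyz2 arm in both libraries and 5.3% at least 2-fold lower. Among these were all 5 measured tissue-resident genes (Mrc1, Pf4, Selenop, Ccl8, Maf) and all 3 measured genes of alternative activation (Retnla, Mrc1, Clec10a), on the higher side. Pf4, a chemokine stored by platelets and made by resident macrophages, had 130 UMIs in the C1q arm and 1 in the Lyz2 arm of the control library, and 60 and 0 in the D-CAN library. That is 1394 CPM (1165 to 1656) in the control and 1063 (811 to 1368) in the D-CAN C1q arm, and at least 62.4-fold above the Lyz2 arm in the D-CAN library. Mrc1, the mannose receptor, had 98 UMIs in 21 of 26 control C1q-arm cells and 40 in 7 of 10 D-CAN cells, against 1 UMI in each Lyz2 arm.

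Folr2, a folate receptor of resident macrophages that had too few UMIs to count as measured, was found in the C1q arm alone, with 65 UMIs in 18 control cells and 27 in 4 D-CAN cells. Timd4, a receptor for dying cells, had 13 and 34 UMIs in the C1q arms and 0 and 2 in the Lyz2 arms. Selenop, a secreted selenium carrier, had 372 and 189 UMIs in the C1q arms and 14 and 3 in the Lyz2 arms. These genes thus had nearly all of their UMIs in C1q-arm cells, whichever library they came from.

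Retnla, which encodes the secreted protein RELMα of alternatively activated macrophages (chr16:48842551-48844461, plus strand), was spread unevenly over cells. In the control C1q arm 10 of 26 cells carried its 527 UMIs, 42.7% of them in 1 cell, and in the D-CAN C1q arm 6 of 10 cells carried 983, 34.6% in 1 cell. The Lyz2 arms had 8 UMIs and 1 UMI, each in 1 cell. In the whole member groups this gave 3111 CPM (2853 to 3386) in control and 4230 (3970 to 4502) in D-CAN, a log2 ratio of 0.44. The ratio was 1.68 without members with a dendritic marker and 1.62 within the C1q arm, both past 2-fold. The summed 11 genes of alternative activation, to which Retnla gave the most UMIs, stood at 0.10, 1.32 and 1.27 in the same order.

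Most lysosome genes and some lipid genes were higher in the C1q arm. Of 9 measured lipid-associated genes, 5 (Lpl, Fabp5, Lipa, Apoe, Cd63) were at least 2-fold higher there in both libraries and Cd9, a tetraspanin, was at least 2-fold lower (−2.43 and −1.35). Apoe, the main lipid-carrier protein of macrophages, had 2596 UMIs in the control C1q arm and 131 in the Lyz2 arm, and 1170 and 102 in D-CAN, log2 ratios of 4.06 and 5.16. Of its D-CAN C1q-arm UMIs 63.8% were in 1 cell. At least 2-fold higher in the C1q arm of both libraries were 10 of 13 measured lysosome genes, with median log2 ratios of 1.30 and 2.05 against −0.24 and −0.51 over all 491 genes. Ctsd, an aspartic protease of lysosomes, had 379 and 174 UMIs in the C1q arms and 33 and 6 in the Lyz2 arms. Pltp, a phospholipid transfer protein, had 82 and 22 against 7 and 3, and Timp2, an inhibitor of matrix metalloproteases, 133 and 52 against 7 and 1.

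The measured monocyte genes, Plac8 and Ccr2, were higher in the Lyz2 arm, and the summed 11 genes of classical monocytes had 1115 CPM in the C1q and 5805 in the Lyz2 arm of control and 1346 and 2458 in D-CAN. Ly6c2, the surface antigen that defines classical monocytes, had 45 UMIs in 12 control and 37 UMIs in 6 D-CAN cells of the Lyz2 arm and none in either C1q arm. Plac8, a small protein of monocytes, had 250 UMIs against 34 in control and 236 against 0 in D-CAN, where the C1q arm was at least 25.2-fold lower. Ccr2, the receptor that draws monocytes out of marrow, had 32 and 67 UMIs in the Lyz2 arms and 14 and 10 in the C1q arms, log2 ratios of −1.41 and −1.04. F13a1, a transglutaminase subunit on the same list, went the other way, with 40 and 42 UMIs in the C1q arms and 12 and 4 in the Lyz2 arms. Plac8 is not specific to monocytes in this tissue, since 43.6% of control and 41.8% of D-CAN fibroblasts also had a UMI of it.

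Il1b, the inflammatory cytokine, had 30 and 102 UMIs in the Lyz2 arms against 3 and 1 in the C1q arms. Nr4a1, the nuclear receptor that nonclassical monocytes depend on, had 31 and 86 against 5 and 2, and Treml4, another gene of those monocytes, 5 and 14 against 1 and 0. Napsa, an aspartic protease, had 25 and 98 UMIs in the Lyz2 arms and 0 in both C1q arms, at least 9.87-fold and 10.5-fold lower. Cd52, Coro1a, Lsp1, S100a11, S100a4 and Srgn, which many leukocytes share, made up the rest of the 10 genes furthest on this side, with log2 ratios between −1.53 and −3.94. MHC class II genes, which present peptides to T cells, were the exception to a clean division. All 5 measured class II genes were lower in the C1q arm in both libraries, but none by 2-fold in both, with H2-Ab1 at −0.98 and −0.59. The D-CAN Lyz2 arm includes the 6 cells with Xcr1 or Clec9a, which held 109940 of its 176187 UMIs. Without members with a dendritic marker, 24 genes were at least 2-fold higher in the C1q arm and 14 lower (8.36% and 4.88% of 287). Of these, 23 and 7 were among the 39 and 26 genes called over all members. The 10 genes furthest on each side all kept a ratio past 2-fold.

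**Figure D2:**
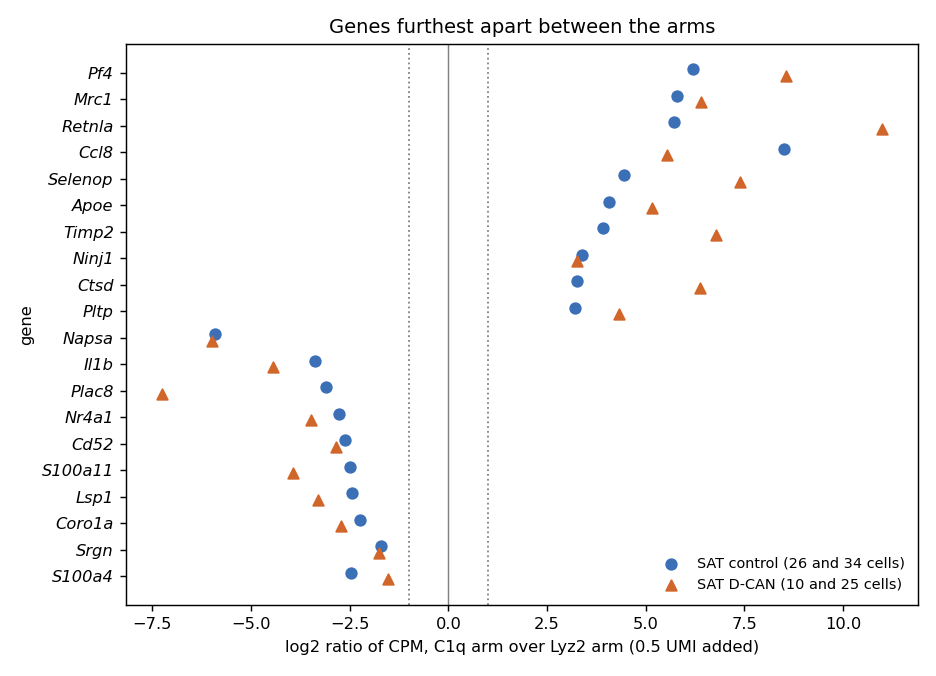
Log2 ratio of CPM, C1q arm over Lyz2 arm with 0.5 UMI added, for the 10 genes furthest on each side, in SAT control (circles, 26 and 34 cells) and SAT D-CAN (triangles, 10 and 25 cells). Points at the extremes, such as Pf4, Ccl8, Napsa and Plac8, rest on 0 or 1 UMI in an arm, so that their position depends on the UMI added.

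**Figure D3:**
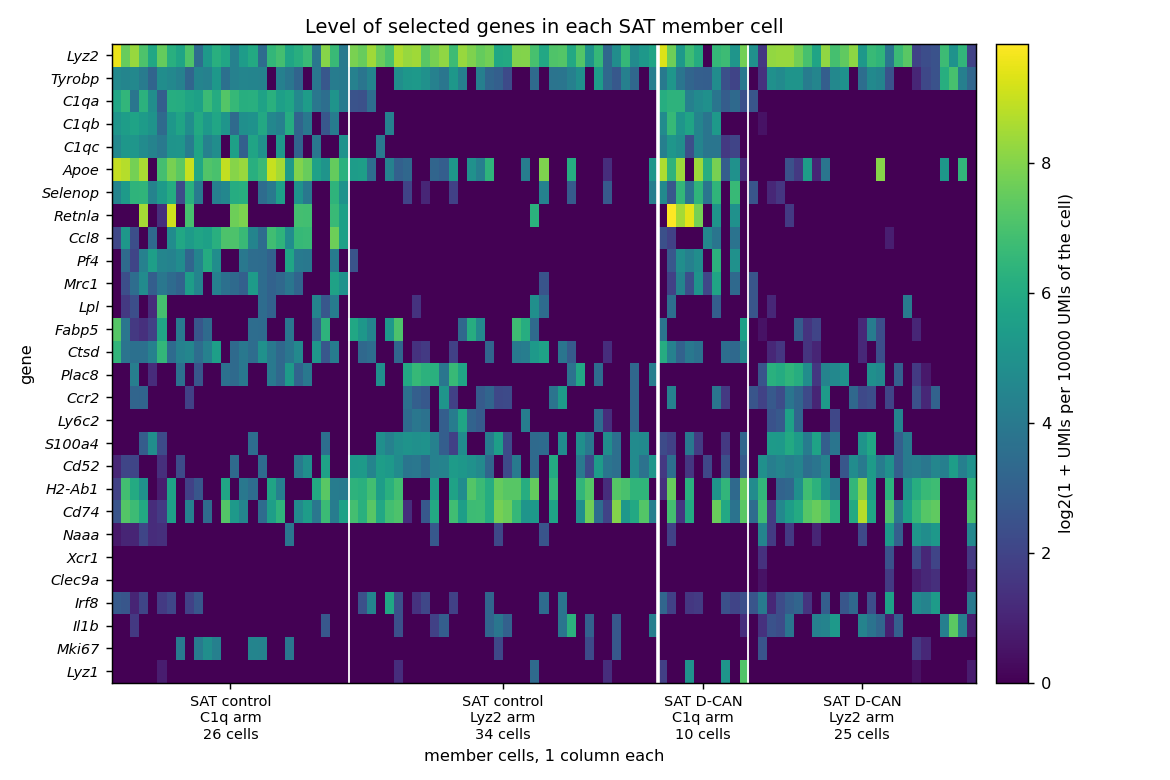
Each column is 1 member and each row a gene, coloured by log2(1 + UMIs per 10000 UMIs of the cell), with members grouped by library and arm. Pf4, Mrc1 and Retnla fill the C1q-arm blocks unevenly, Ly6c2 is confined to Lyz2-arm blocks in both libraries, and every cell with Xcr1 or Clec9a lies in the D-CAN Lyz2 arm.

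Resident, lipid-handling, lysosomal and interferon-stimulated genes made up a smaller share of the summed UMIs of D-CAN members than of control members. Genes that sat in the Xcr1 or Clec9a cells made up a larger share. These are shares and not amounts per cell, since D-CAN members were the deeper ones. Over all members, 4.07% of the 491 genes were at least 2-fold higher in D-CAN (20 genes) and 10.8% at least 2-fold lower (53 genes), with a median log2 ratio of 0.11. CPM are shares of the summed UMIs, and 47.3% of those of D-CAN members lay in the 6 cells with Xcr1 or Clec9a. The ratios that carry the comparison are therefore also given without members with a dendritic marker (54 control and 26 D-CAN cells) or within an arm. The 6 cells with Xcr1 or Clec9a are all in the Lyz2 arm, where they held 109940 of the 176187 D-CAN UMIs. Ratios within the Lyz2 arm therefore include these cells, and those within the C1q arm do not.

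All 5 measured tissue-resident genes were at least 2-fold lower in D-CAN members. Ccl8, a chemokine of resident macrophages (chr11:82115185-82116799, plus strand), had 215 UMIs in 22 control members, 1250 CPM (1089 to 1429), and 23 UMIs in 6 D-CAN members, 98.9 CPM (62.7 to 148). Its log2 ratio was −3.63 (−4.35 to −3.04), −3.08 without the dendritic-marker members and −2.54 within the C1q arm. The Lyz2 arms had 0 and 1 UMI of it, too few for a direction. Pf4 (131 and 60 UMIs) and Mrc1 (99 and 41) stood at −1.56 and −1.70, but at −0.39 and −0.56 within the C1q arm. The summed CPM of the 17 listed resident genes was 7089 in control and 2261 in D-CAN, a log2 ratio of −1.65, against −0.67 without the dendritic-marker members and −0.49 within the C1q arm. Among cells of the same arm Ccl8 thus differed by over 2-fold, and Pf4 and Mrc1 by less. Without the dendritic-marker members 1 of the 5 measured resident genes, Ccl8, was still at least 2-fold lower.

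At least 2-fold lower in D-CAN members were 8 of 9 measured lipid-associated genes, with a median log2 ratio of −1.63, and Cd9 was the exception at 0.82. Without the dendritic-marker members 5 of 6 measured genes of the list passed, against 8.71% of 287 genes then measured. That setting also leaves out the C1q-arm cell with 746 of the 1272 D-CAN UMIs of Apoe. Fabp5, a fatty acid carrier, had 544 UMIs in 25 control members and 74 in 10 D-CAN members, a log2 ratio of −3.31, −2.07 in the C1q arm and −4.23 in the Lyz2 arm. In control 51.7% of its UMIs were in 1 cell. Lpl, lipoprotein lipase, had 187 against 8 UMIs (−4.90, and −3.65 without the dendritic-marker members), of which 89.3% in control came from 1 cell. Lpl also had a UMI in 48.8% of control and 62.7% of D-CAN endothelial cells and in 44.7% and 76.1% of fibroblasts, and its source in members was not tested. Lgals3, a galactose-binding lectin, had 301 and 98 UMIs (−2.05, and −1.47 without those members). Trem2, the lipid receptor that defines lipid-associated macrophages, had 44 UMIs in 11 control members, 68.2% in 1 cell, and 2 in 1 D-CAN member, and without the dendritic-marker members 41 and 2. Gpnmb, another gene of that state, had 26 and 0 UMIs in all members, at least 11.7-fold lower in D-CAN, and 26 and 0 without the dendritic-marker members, with 57.7% of the control UMIs in 1 cell.

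The summed CPM of the 16 lipid-associated genes was 25442 in control and 7677 in D-CAN, a log2 ratio of −1.73. It was −1.67 without the dendritic-marker members and −0.74 within the C1q arm. The −1.67 leaves out the C1q-arm cell that held 46.9% of the D-CAN UMIs of the list. Apoe gave most of these UMIs, 2727 and 1272, and stood at −1.54 over all members, −1.57 without the dendritic-marker members and −0.43 within the C1q arm, where 63.8% of its D-CAN UMIs were in 1 cell. That cell, with 746 UMIs of Apoe, had a dendritic marker and is left out of the −1.57. The cells with Xcr1 or Clec9a held 0% of the D-CAN UMIs of Apoe. At least 2-fold lower in D-CAN were 9 of 13 measured lysosome genes, and all 13 were below 0. Without the dendritic-marker members 6 of 11 were that much lower. Ctsb, a cysteine protease, had 746 UMIs in 51 control and 233 UMIs in 31 D-CAN members (−2.11, and −1.34 in the C1q and −1.45 in the Lyz2 arm). Lgmn, an asparagine-specific protease, had 114 and 36 UMIs (−2.09, and −0.88 without the dendritic-marker members), and Pltp 89 and 25 (−2.25, and −1.07 without them). Psap, which encodes the activators of lipid breakdown in lysosomes, was the most counted gene of that list and stood at −0.37 with 808 and 848 UMIs, and at −0.15 without the dendritic-marker members.

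Core macrophage genes divided. Ms4a7, a membrane protein of macrophages (chr19:11321039-11336146, minus strand), had 113 UMIs in 29 of 60 control members and 16 in 4 of 35 D-CAN members, log2 ratio −3.22 (−4.11 to −2.49). It stood at −3.54 without the dendritic-marker members, −1.94 in the C1q arm and −4.53 in the Lyz2 arm. The −3.54 leaves out the D-CAN C1q-arm cell with 18692 UMIs. The −4.53 includes the cells with Xcr1 or Clec9a, which held 0% of the D-CAN UMIs of Ms4a7 but most UMIs of that arm. After thinning to 1000 UMIs, 43.9% (28.5 to 60.3) of 41 control and 6.25% (0.766 to 20.8) of 32 D-CAN members had a UMI of it. Fcgr1, the high-affinity IgG receptor CD64, had 23 and 0 UMIs, at least 10.4-fold lower in D-CAN, and 20 and 0 without the dendritic-marker members. Cd68 and Ctss were also at least 2-fold lower (−1.86 and −1.70, and −2.21 and −1.26 without those members). Csf1r (−0.76), Spi1 (−0.04) and Aif1 (−0.20) were within 2-fold, and stood at 0.04, 0.27 and −0.85 without them. Over the 18 core genes the summed CPM stood at −0.86, and at −0.20 without the dendritic-marker members.

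The summed interferon-stimulated list, most of whose UMIs were of 1 gene, Ifi27l2a, was lower in D-CAN members in both arms. The Lyz2-arm values include the cells with Xcr1 or Clec9a. Ifi27l2a, the only measured gene of the list, had 541 UMIs in 42 control and 163 UMIs in 16 D-CAN members, log2 ratio −2.16 (−2.43 to −1.91). It stood at −2.37 in the C1q arm, −1.78 in the Lyz2 arm and −1.0 without the dendritic-marker members. Irf7, the transcription factor of the interferon response, had 51 and 10 UMIs, Isg15 35 and 9, and Ifit2 24 and 1, and without the dendritic-marker members 47 and 6, 32 and 8, and 24 and 1. Summed over 16 genes the list had 4966 CPM in control and 1216 in D-CAN, a log2 ratio of −2.03, against −2.05 in the C1q arm, −1.67 in the Lyz2 arm and −1.14 without the dendritic-marker members. Rgs1, a regulator of chemokine signalling outside these lists, had 96 and 11 UMIs (−3.50) and was lower in both arms (−2.13 and −4.27).

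Genes of the gate itself were lower too, as a description of the cells chosen. Lyz2 had 3923 and 2712 UMIs (−0.97), C1qa 443 and 243 (−1.30), C1qb 306 and 147 (−1.49), C1qc 226 and 81 (−1.91), Tyrobp 340 and 271 (−0.76) and Fcer1g 320 and 196 (−1.14). In the C1q arm the same genes stood between −0.74 and 0.10.

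Of the 10 genes furthest higher in D-CAN members, 8 had at least 50% of their D-CAN UMIs in the 6 cells with Xcr1 or Clec9a. Across the 20 genes at least 2-fold higher that held for 17, with a median of 74.6% of UMIs in those cells, against 1 of the 53 lower genes and 258 of all 491 (median 51.3%). Naaa (chr5:92257659-92278170, minus strand) had 13 UMIs in control and 335 in D-CAN, a log2 ratio of 4.20 that became −0.38 without the dendritic-marker members. Irf8, a transcription factor that dendritic cells and monocytes need, had 43 and 321 UMIs (2.45, and 0.14 without them). Cst3, the protease inhibitor cystatin C, had 523 and 2359 (1.74, and 0.16), Hmgb2, a chromatin protein, 43 and 320 (2.45, and 0.35) and Ppt1, a lysosomal thioesterase, 24 and 152 (2.20, and 0.02). H2-DMb1, which helps load class II molecules, had 24 and 93 (1.5, and 0.44).

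Plbd1, a phospholipase of granulocytes and monocytes, was 1.71 higher on the log2 scale even without the dendritic-marker members, with 13 and 132 UMIs in all members. Srgn, a proteoglycan of secretory granules, had 57 and 202 UMIs and went from 1.38 to 1.76 without them. Napsa had 25 and 98 (1.51, and 0.94 without them). Lyz1, the neighbour and near-identical copy of Lyz2 (chr10:117287797-117292868), had 4 and 137 UMIs (4.50), but 72.3% of the D-CAN UMIs were in 1 cell and counting can divide reads between the copies, so that its value is uncertain. Il1b stood at 1.19 with 33 UMIs in 13 control and 103 in 17 D-CAN members, and at 1.94 without the dendritic-marker members. Outside the dendritic-marker cells Plbd1, Srgn, Il1b and Lyz1 therefore kept a ratio above 2-fold and the other 7 genes named here did not, although Plbd1 (12 and 23 UMIs) and Il1b (28 and 62) were then below the minimum for a measured gene.

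MHC class II genes had 12811 CPM in control and 22941 in D-CAN members, summed over 10 genes, a log2 ratio of 0.84. Cd74, the invariant chain, had 925 and 2410 UMIs and H2-Ab1 722 and 1651 (0.94 and 0.76), and 57.9% and 57.5% of their D-CAN UMIs were in the cells with Xcr1 or Clec9a. Without the dendritic-marker members the summed ratio was 0.04. Over all members, 1 of 5 measured class II genes, H2-DMb1, was at least 2-fold higher, against 4.07% of all 491 genes.

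The 12 proliferation genes had 57 UMIs in control and 290 in D-CAN members, 331 and 1247 CPM. All 290 were in the cells with Xcr1 or Clec9a, 289 of them in 3 cells, and the 26 D-CAN members without a dendritic marker had none, against 321 CPM in the 54 such control members. The direction thus turned without the dendritic-marker members. It also turned within the C1q arm, with 52 UMIs in control and 0 in D-CAN. In control 5 of 60 members had at least 5 UMIs of the list and in D-CAN 3 of 35. Mki67, a marker of dividing cells, had 20 UMIs in each library, in 10 control and 3 D-CAN members. Cd8a, which dendritic cells of this type can also carry, had 1 UMI in control and 21 in D-CAN members, all 21 in the same 6 cells.

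Classical monocyte genes turned with the cells included. The 11 genes had 3262 CPM in control and 2188 in D-CAN (−0.58), with Plac8 at 284 and 236 UMIs (−0.70) and Ccr2 at 46 and 77 (0.30). Without the dendritic-marker members the summed ratio was 0.77, and within the Lyz2 arm −1.24. The Lyz2-arm value includes the cells with Xcr1 or Clec9a, which held 109940 of the 176187 UMIs of that arm in D-CAN. Genes of immediate early response and heat shock, which tissue dissociation can induce, did not separate the libraries over all members, with 0 of 10 measured genes past 2-fold and 8112 and 8193 CPM in sum. Without the dendritic-marker members 3 of 7 measured genes were at least 2-fold higher in D-CAN, against 7.32% of all genes then measured.

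**Figure D4:**
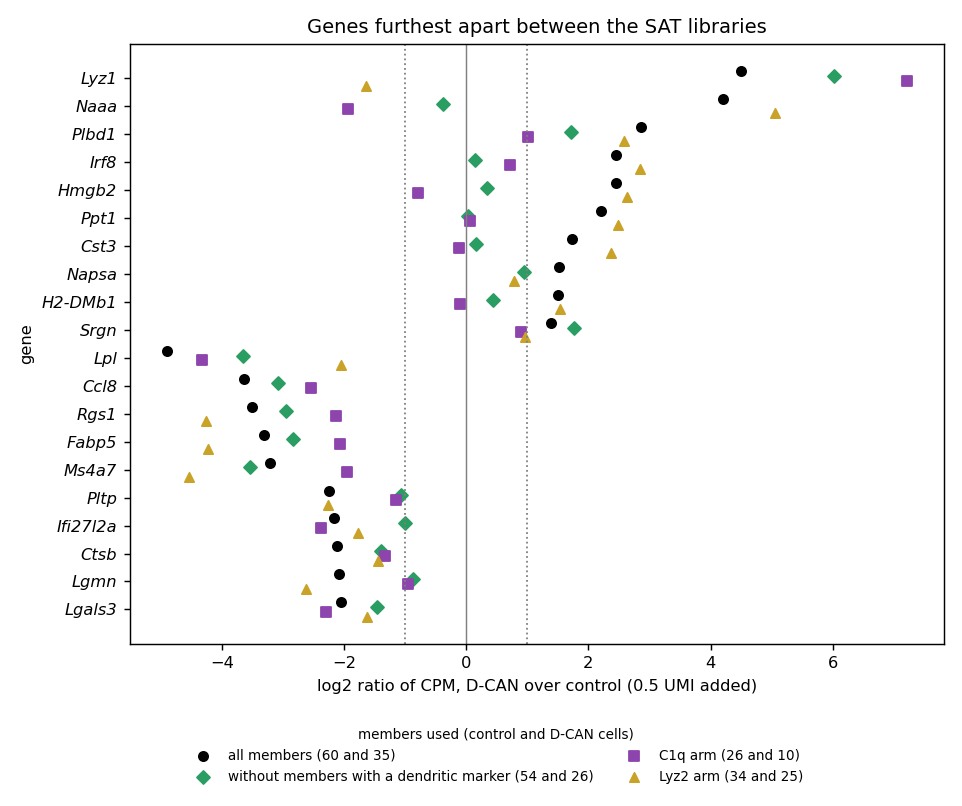
Log2 ratio of CPM, D-CAN over control with 0.5 UMI added, for the 10 genes furthest on each side, in all members, without members with a dendritic marker, and within each arm. Lower genes such as Ms4a7, Rgs1 and Fabp5 stay left of 0 in every set, while Naaa, Irf8, Cst3, Ppt1 and Hmgb2 lie near 0 once dendritic-marker members are left out.

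Lyz2 and C1q were also counted in cells of other types. Of 504 control and 564 D-CAN B cells (median 2130 and 2660.5 UMIs), 2.78% and 3.37% had a UMI of Lyz2, as did 2.59% of 580 and 4.04% of 643 T cells (medians 2999.5 and 3681) and 6.65% of 346 and 9.49% of 158 endothelial cells (medians 1596 and 4591). The amounts differed, since the 19 D-CAN B cells with Lyz2 held 1241 UMIs of it and the 14 control B cells 17, and 4 D-CAN B cells held 178 UMIs of C1qa. How much of this was free RNA and how much came from capture of more than 1 cell was not tested. C1qa had a UMI in 2.89% of control and 1.9% of D-CAN endothelial cells and in under 1% of B and T cells, and Retnla in 2.89% and 4.43% of endothelial cells and 0.778% to 1.39% of B and T cells. The shares in members, such as 18.3% for Retnla in control and 20% in D-CAN, lie above these. Apoe was different, with a UMI in 70% of control and 48.6% of D-CAN members but also in 76.6% of control and 81.6% of D-CAN endothelial cells. After thinning to 1000 UMIs, 73.2% of control and 34.4% of D-CAN members had a UMI of Apoe. Ccl8 also had a UMI in 17.6% of control and 17.9% of D-CAN fibroblasts, although members were required to have no Dcn.

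Compared with C1q-positive cells of the tumor graft, SAT members had almost no Spp1, less RNA of glycolysis genes and chemokines, and more of Retnla. Of 6 measured classical monocyte genes, 3 (Ly6c2, Ccr2, Plac8) were at least 2-fold higher in SAT members in both treatments and Fn1, which encodes fibronectin, at least 2-fold lower (−1.56 and −2.67). The tumor cells had at least 5 UMIs of the C1q sum and at least 1 of Lyz2, 404 of 2761 control (14.6%) and 244 of 1487 D-CAN cells (16.4%), with medians of 1799.5 and 2609 UMIs. Since that rule asks for C1q and the SAT rule does not, the C1q genes were higher in the tumor by construction. Of 2779 genes measured, 2.45% were at least 2-fold higher in SAT members in both treatments and 5.87% at least 2-fold lower. The tumor cells carried 176 and 125 UMIs of cancer cell genes and 345 and 977 of fibroblast genes. Without tumor cells that had cancer markers, 2.49% of 2368 measured genes were at least 2-fold higher in both and 6.08% lower. Without those that had Dcn or Cdh5 the shares were 2.72% and 5.72% of 2607. The part of such RNA in the remaining cells was not tested.

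Spp1, which encodes the secreted matrix protein osteopontin, had 1781 and 2750 UMIs in tumor cells, 1 UMI in SAT control members and 14 in SAT D-CAN members, all 14 in cells with Xcr1 or Clec9a. After thinning to 1000 UMIs, Spp1 was seen in 46.3% and 43.9% of tumor cells, and in 0 of 41 and 0 of 32 SAT members, which allows shares of cells with a UMI, at this depth, of up to 7.32% and 9.38%. Without thinning 1 of 60 control and 3 of 35 D-CAN members had a UMI of Spp1. Fgb, Lcn11, Ptgds, Krt7 and 5430419D17Rik were at 0 in SAT members of both libraries. Col1a2, a collagen gene at 0 there too, had 72 and 309 UMIs in the tumor cells. The SAT rule leaves out cells with Dcn, and the tumor rule does not. Without tumor cells with Dcn or Cdh5, 1 gene of the fibroblast list was measured, and 0 were at least 2-fold lower in both. The 20 genes named in this comparison, Col1a2 among them, all kept a ratio past 2-fold then.

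All 10 measured genes of glycolysis and hypoxia response were at least 2-fold lower in SAT members in both treatments, with median log2 ratios of −2.03 and −1.83. Their summed CPM was 1745 and 2055 in SAT members against 7029 and 7223 in tumor cells. Gapdh had 84 and 169 UMIs in SAT and 1739 and 1859 in tumor cells, and Ldha, lactate dehydrogenase, 29 and 50 against 665 and 688. Trem2 was lower too, with 44 and 2 UMIs against 806 and 763. Hmox1, which breaks down heme, had 28 and 23 against 726 and 820 (−2.35 and −3.25).

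At least 2-fold lower in SAT members in both treatments were 6 of 12 measured chemokines, among them Ccl12 (4 and 1 UMIs against 600 and 714) and Ccl2 (32 and 34 against 439 and 607), which draw monocytes. Of chemokine receptors Ccr2 was higher in SAT, at 1.95 in both, and Ccr1 and Cx3cr1 were lower, with Cx3cr1, the receptor for fractalkine, at −1.83 and −2.98. Ccl8 was lower in SAT members in both (−0.91 and −4.55), and past 2-fold only in the D-CAN pair. The unlike rules bear on this gene. All 215 Ccl8 UMIs of SAT control members were in the C1q arm, which held 93236 of the 171957 UMIs of those members. The tumor control cells, all chosen by C1q, had 2031 UMIs of Ccl8 in 862576. The summed resident genes had 7089 CPM in SAT control members, 2261 in SAT D-CAN members, 5014 in the latter without members with a dendritic marker, and 4829 and 5539 in control and D-CAN tumor cells. With the tumor rule on SAT members 4 of 8 measured resident genes were at least 2-fold higher in SAT in both treatments, against 2.54% of all 2405 genes then measured. Under that rule 4 of 12 measured chemokines were at least 2-fold lower in SAT in both and 1 at least 2-fold higher. The shares over all genes were 5.36% and 2.54%.

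On the higher side, Retnla had log2 ratios of 4.84 and 4.30 over tumor cells, where only 17 of 404 control and 6 of 244 D-CAN cells had a UMI. Plac8 stood at 3.84 and 3.51, Ly6c2 at 3.71 and 2.68, Il1b at 2.66 and 2.73, Napsa at 2.12 and 3.77, and H2-M2, a nonclassical class I molecule, at 4.37 and 5.86. When SAT members had to meet the tumor rule, which left 21 and 6 cells, Retnla stood at 5.74 and 6.88, whereas Ly6c2 (−1.84 and −0.95), Il1b (−0.11 and −2.37) and Napsa (−2.59 and −1.26) turned to the other side, on fewer than 100 UMIs each, and Plac8 (1.72 and −2.79) and H2-M2 (−1.35 and 2.15) had opposite signs in the control and D-CAN pairs. Under that rule 2.54% of 2405 genes were at least 2-fold higher in SAT in both treatments and 5.36% at least 2-fold lower. Of 5 classical monocyte genes then measured, 1 was at least 2-fold higher in SAT in both. When tumor cells were instead chosen by the SAT rule, Retnla stood at 3.63 and 4.53, Ly6c2 at 2.05 and 0.51, Il1b at 1.81 and 2.4 and Napsa at 1.47 and 2.96. Retnla was thus higher in SAT under each pair of rules, while the other 5 genes given here were not in both treatments once SAT members had to meet the tumor rule. Ighm, an antibody chain of B cells, stood at 2.97 and 2.15, with 47 and 63 UMIs in SAT members, and the part of free B cell RNA in it was not tested. St8sia4, Ccdc88a and Fosb completed the 10 genes, between 2.03 and 2.52. Timd4, with 13 and 36 UMIs in SAT members, had 1 and 2 in all tumor cells.

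MHC class II genes were higher in SAT members than in tumor cells for all 6 genes measured, with H2-Aa past 2-fold in both treatments (1.33 and 2.39). At least 2-fold higher in SAT in both were 4 of 11 immediate early and heat shock genes (Fosb, Ier2, Zfp36, Hspa1b), and 9 of 11 were above 0 in both. With the tumor rule on SAT members 1 of 11 of these genes and 0 of 5 measured class II genes were at least 2-fold higher in both, against 2.54% of all genes. How dissociation differed between the tissues was not tested.

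**Figure D5:**
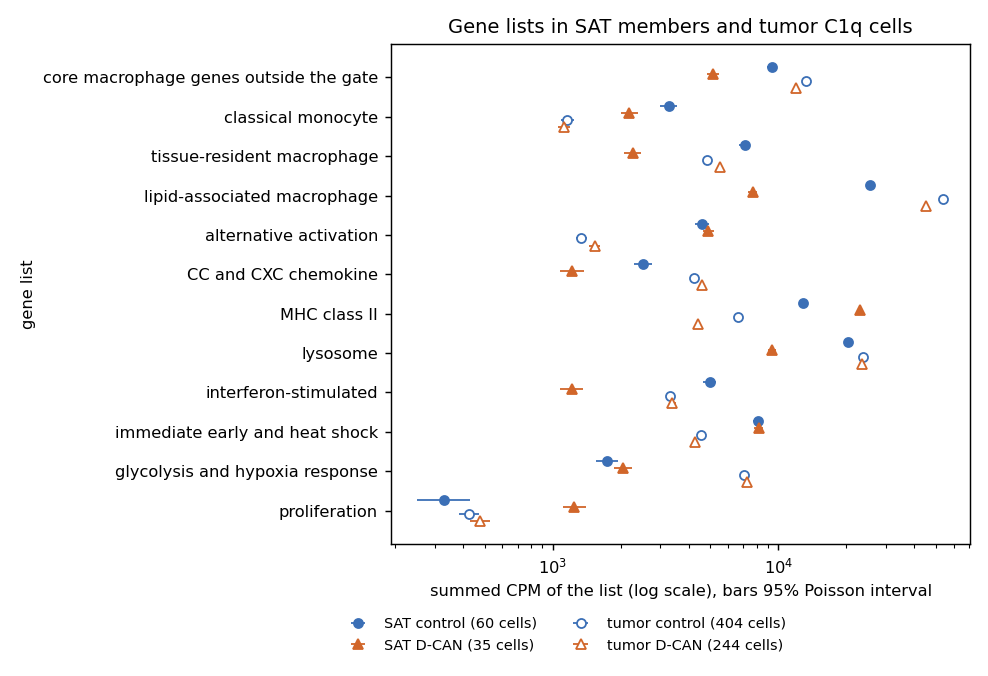
Summed CPM of gene lists on a log scale, with bars for 95% Poisson intervals, in SAT members and tumor C1q cells of the control and D-CAN libraries. Glycolysis genes lie lower in both SAT groups (1745 and 2055 CPM) than in both tumor groups (7029 and 7223), while resident and interferon-stimulated genes are lowest in the SAT D-CAN group.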

How the data were processed

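The authors sequenced 4 10x 3′ libraries, 1 per tissue and treatment, and per the labels used Cell Ranger 3.1.0 and STAR 2.6 with mm10. The deposited values are whole-number UMI counts, not normalized, for 31053 genes in each cell. Members and gene lists were chosen with earlier results of these data known. Software was Python 3.11.15, pandas 2.3.3, scipy 1.17.1 and numpy 2.4.6. UMIs were summed over the cells of a group, and CPM are UMIs per 1000000 of that sum. Ratios have 0.5 UMI added to each sum, need 100 UMIs over the groups compared (over both member groups for members over other cells) to count as measured, and pass at 2-fold. A fold against 0 UMIs uses a floor of 3 counts in that group. Named genes are list members and the 10 furthest on each side of a comparison (15 for members over other cells, and by the smaller of both ratios where a comparison has 2 pairs), without gate, mitochondrial and ribosomal protein genes. B, T, endothelial and fibroblast groups were set by marker UMIs. No doublet caller was run, and the gate leaves out cells with UMIs of Cd79a, Cd3e, Dcn or Cdh5 but not those with UMIs of other genes of those types. Gene positions are from GENCODE M21 (GRCm38). The ratio computation was tested on simulated counts. Alternatives covered the UMI minimum, centring, thinning to 1000 UMIs per cell, depth, mitochondrial share, gate and arm, and after the data had been seen, members without dendritic markers, genes without their top cell and tumor cells without Dcn and Cdh5. Some genes that meet the naming rule are not reported here.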

Additional observations from a re-analysis of the deposited data

Results flagged for a closer look

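For 7 gene lists the log2 ratio of summed CPM, D-CAN over control, had opposite signs in SAT members and in tumor C1q cells, with both counting intervals excluding 0. Each group is 1 library, and the difference between tissues was not tested. Tissue-resident macrophage genes stood at −1.65 in SAT members and 0.20 in tumor cells. CC and CXC chemokines stood at −1.04 and 0.12, scavenging and clearance genes at −1.04 and 0.16, iron and heme genes at −1.04 and 0.12, and growth factor and matrix remodeling genes at −1.42 and 0.17. MHC class II genes were the reverse, at 0.84 in SAT members and −0.58 in tumor cells, as were nonclassical monocyte genes at 0.66 and −0.30. The nonclassical sums do not have the same leading gene in the tissues. In SAT members it was Nr4a1, with 36 of 115 UMIs in control and 88 of 246 in D-CAN. In tumor cells it was Cx3cr1, with 473 of 613 in control and 392 of 492 in D-CAN. Without members with a dendritic marker the SAT values were −0.67 for resident genes, −0.61 for chemokines, −0.34 for scavenging, −0.52 for iron and heme, −1.15 for growth factor and matrix, 0.04 for class II and 2.0 for nonclassical monocyte genes. Within the C1q arm and the Lyz2 arm they were −0.49 and −2.29 for resident genes, −0.94 and −0.73 for chemokines, 0.02 and −1.42 for scavenging, −0.22 and −1.28 for iron and heme, −0.65 and −1.06 for growth factor and matrix, 0.44 and 0.62 for class II, and 0.03 and 0.17 for nonclassical monocyte genes. The D-CAN Lyz2 arm includes the cells with Xcr1 or Clec9a, which held 109940 of its 176187 UMIs. Its resident value rests on 40 UMIs in control and 18 in D-CAN.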

How the results depend on the processing

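No paired analysis was possible because each group is 1 library. The share of members (D-CAN minus control, −0.144 to −0.523 percentage points) and the C1q-arm share (−9.83 to −22.1 points) stayed within their intervals under every alternative. The numbers of genes at least 2-fold higher and lower in D-CAN, 20 and 53, became 48 and 95 with a minimum of 50 UMIs, 10 and 23 at 200, 13 and 26 without the 2% deepest members, 4 and 14 after thinning, and 11 and 19 in the C1q arm alone. In the Lyz2 arm alone they were 21 and 19. Of the 20 and 53 genes, 0 and 10 also passed after thinning, which left 174 genes measured. In the C1q arm alone 1 and 15 did, and in the Lyz2 arm alone 11 and 12. By the mean of per-cell CPM, with 23 and 37 genes, 10 and 26 did. Of the 20 genes named in this comparison, measured or not, 12 kept a ratio past 2-fold after thinning and 1 did not keep its direction. Without members with a dendritic marker 21 and 25 passed, sharing 2 and 20 genes with all members. The arm counts, 39 and 26, became 17 and 11 at 200 UMIs, 14 and 8 after thinning, and 33 and 46 without each gene's top cell. They became 24 and 14 without dendritic-marker members, sharing 23 and 7 genes with all members. Reversed ratios of D-CAN over control were Naaa (−1.05 thinned, −1.94 in the C1q arm, −0.38 without dendritic markers), Hmgb2, Cst3 and H2-DMb1 in the C1q arm (−0.80, −0.12, −0.10), and, on at most 3 UMIs a library, too few for a direction, Lyz1 and Ccl8 in the Lyz2 arm (−1.65, 0.42). With the tumor gate on SAT members Ly6c2, Il1b and Napsa reversed (smaller ratios −0.95, −0.11, −1.26), and Plac8 and H2-M2 had opposite signs in the 2 pairs. The causes were not tested, apart from the fewer cells or genes that these settings leave. Depth limits every value, since 95 cells in 2 libraries carry them and single cells can hold most UMIs of a gene.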
